A study of Mus musculus with 30 samples.

Results

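GFPneg glioma monocytes were compared with GFPneg CCR2low macrophages sorted from the same tumor-bearing mouse brains. The samples were chosen by their titles, which gave 3 monocyte samples (mice 22, 24 and 26) and 4 macrophage samples (mice 22, 23, 24 and 26), 7 of the 30 samples of the series. The series holds RNA-seq of 8 sorted populations from these 4 mice: Ly6Chigh and Ly6Clow monocytes of the blood, and monocytes, CCR2high macrophages and CCR2low macrophages of the brain, the brain cells each with and without GFP. All mice were C57BL6.CCR2RFP/WT, aged 12 to 18 weeks, heterozygous for a knock-in in which 1 Ccr2 allele carries RFP, so the monocytes and the macrophages alike had 1 intact Ccr2 allele. Every brain had been implanted with GL261.BpalmGFP, a syngeneic mouse glioma line that makes a palmitoylated, membrane-anchored GFP. GFPneg cells are those in which the sorter saw no GFP, the glioma's membrane mark. Both populations were CD45high CD11bhigh cells. The monocytes were then gated as F4/80 positive with high Ly6C, and the macrophages were divided by the RFP that reports Ccr2. Each mouse gave at most 1 library per population, so the mouse is the unit of replication.

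Classical monocytes leave the blood through the chemokine receptor CCR2 and, once in tissue, can turn into macrophages. On that path they usually lose Ly6C and CCR2, shed the granule and adhesion transcripts of the circulating cell, and take on genes for phagocytosis, lysosomal digestion and tissue residence. In a glioma these cells join the microglia, the resident macrophages of the brain, which arise before birth and not from blood monocytes.

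The libraries of both populations were of similar depth, with 1683203 to 2154652 counts on genes in the monocytes (median 2125807, n = 3) and 1799420 to 3809705 in the macrophages (median 1975677, n = 4). Spike-in RNAs made up 0.319% to 0.742% and 0.380% to 1.17% of the counts, and mitochondrial genes 0.677% to 0.929% and 0.798% to 1.42%. Values are normalized read counts in CPM, the count per 1000000 counts of the library size after TMM scaling. They are given in the order of mice 22, 24 and 26 for the monocytes and 22, 23, 24 and 26 for the macrophages. Both libraries of mouse 26 held Xist (53.4 and 92.5 CPM) and no counts of the Y-linked genes, whereas all libraries of the other mice held Y-linked counts. Of the other 5 libraries, Xist, the transcript of the inactive X chromosome, was found in 1, at 0.473 CPM. The study's methods give mice of both sexes in equal numbers, which these counts do not show, and sex cannot be told apart from the mouse.

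The monocytes had more genes called higher than lower. Of 11566 genes tested, 219 were called higher (1.89%) and 44 lower (0.38%) in glioma monocytes than in CCR2low macrophages, 263 in all (2.27%), at a Benjamini-Hochberg adjusted p under 0.05 in edgeR's quasi-likelihood test with the mouse as a block. Before adjustment, 1119 genes had p under 0.05. The fitted change was over 2-fold in 184 of the genes called higher and over 4-fold in 71, and over 2-fold in 40 and over 4-fold in 13 of those called lower. Within mice 22, 24 and 26, 218 of the 219 genes were higher in all 3 mice, and all 44 were lower in all 3. The 7 libraries separated the populations without overlap in 198 and 39 of them, against 7.13% and 6.61% of all tested genes. The genes were called on these same mice and libraries, so both counts describe the calls and give them no support. As bulk RNA was measured, a lower level can come from fewer cells that hold a transcript or from less of it in each cell, and these cannot be told apart. The plot of all genes shows that most calls in both directions lay at moderate to high levels.

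**Figure D1:**
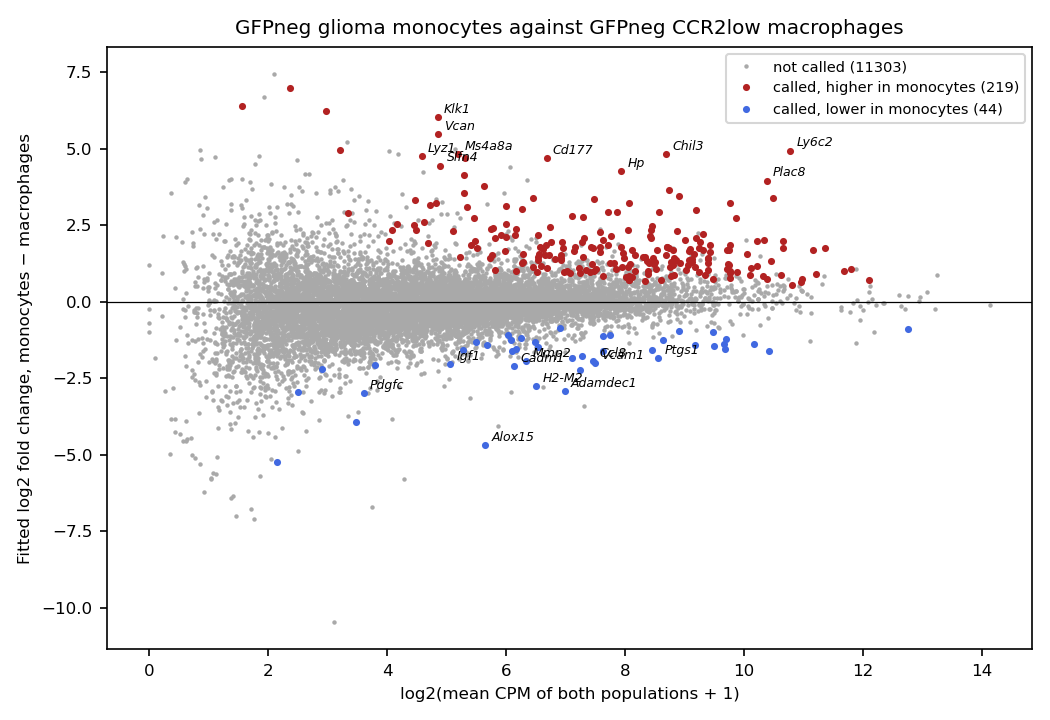
Fitted log2 fold change of each of the 11566 tested genes (glioma monocytes minus CCR2low macrophages, both GFPneg) against log2 of the mean CPM of both populations plus 1. Red points are the 219 genes called higher in monocytes, blue points the 44 called lower, and grey points the genes not called; the 20 genes named by rule are labelled, from Klk1 at 6.04 to Alox15 at -4.70.

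The count of calls depended on the scaling and on the mice. Over all genes the median log2 fold change was -0.094 with TMM, and with library sizes taken from the spike-in RNAs it was -0.428. The spike-in scaling left 4 genes called, all higher in monocytes: Ly6c2, Chil3, Hp and Plac8. Changes below are therefore relative to the bulk of the genes and not per amount of spike-in RNA. Leaving out 1 of the 7 libraries gave 100 to 207 genes higher and 10 to 30 lower, with the fewest without the monocytes of mouse 24. Without the mouse as a block, 110 genes were called higher and 16 lower.

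Ly6c2 and Ccr2, the genes behind the Ly6C and RFP gates, behaved as these gates select, and give a check of the labels and no result. Ly6c2, which encodes the Ly6C antigen, stood at 3582, 3712 and 2848 CPM in the monocytes and 97, 144, 169 and 92.5 in the macrophages. Ccr2 stood at 822, 579.8 and 949.9 CPM against 62.6, 82.2, 32.6 and 113. Adgre1, which encodes F4/80, was at 306, 314 and 357 against 553, 486, 685 and 815 CPM (adjusted p = 0.0398). The gates as described do not set this direction. Its call held without the macrophages of mouse 23 and without no other library (0.0705 to 0.174), nor without the mouse block (0.0589). The other 3 genes of this list, Ly6c1, Itgam and Ptprc, were not called. In Ly6c2, Ccr2 and Adgre1 the libraries of the populations did not overlap, with monocytes above in Ly6c2 and Ccr2 and below in Adgre1. Reads of Ly6c2 and of its near copy Ly6c1 may have been split between them.

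Among the genes that no gate used, the largest rises in the monocytes included secreted, granule and surface proteins. Together with Ly6c2, the genes described next led by fitted change among the called genes that reached a mean of 20 CPM in either population and whose replicates did not overlap. Klk1 (chromosome 7, 44225360 to 44229618), a tissue kallikrein protease, stood at 54, 44.4 and 65.6 CPM in the monocytes and at 1.15, 3.19, 0 and 0.535 in the macrophages. Every monocyte library was far above every macrophage library, and the log2 fold change was 6.04 (standard error 1.03, adjusted p = 0.00192). Chil3 (chromosome 3, 106147554 to 106167564), the chitinase-like protein Ym1, had 354, 451 and 1555 CPM against 3.44, 58.5, 46.8 and 48.6. The monocytes of mouse 26 held the most and the macrophages of mouse 22 almost none, and the populations did not overlap (log2 fold change 4.84, standard error 0.58, adjusted p = 1.83e-05). Hp (chromosome 8, 109575128 to 109579172), which encodes the hemoglobin-binding protein haptoglobin, was at 478, 373 and 546 CPM against 6.89, 27.8, 25 and 35.3 (log2 fold change 4.28, standard error 0.49, adjusted p = 1.19e-05). Its monocyte values lay close together and all were over 10 times the highest macrophage value.

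Plac8 (chromosome 5, 100553725 to 100572245), a small cysteine-rich protein of myeloid cells, had the smallest adjusted p of all genes. It stood at 2546, 3412 and 1518 CPM in the monocytes and 126, 233, 269 and 95.1 in the macrophages, which fitted to 3.96 on the log2 scale (standard error 0.25, adjusted p = 8.67e-10). Ms4a8a (chromosome 19, 11067471 to 11081102), a membrane-spanning protein, had 46.8, 42.2 and 118 CPM against 1.15, 4.1, 2.84 and 1.6 (log2 fold change 4.84, adjusted p = 2.58e-05). Cd177 (chromosome 7, 24743983 to 24760311), a surface glycoprotein best known from neutrophils, was at 128, 336 and 111 CPM in the monocytes and at 0, 15.5, 24.1 and 7.48 in the macrophages (log2 fold change 4.69, adjusted p = 0.00134). In each of these genes the lowest monocyte library lay above the highest macrophage library. In Ms4a8a and Cd177 the macrophages of mouse 22 were under the floor of 3 counts (1.72 CPM), so the size of both changes is uncertain. Of the neutrophil markers, 0 of 11 tested were called, against 2.27% of all genes. Their summed level was 374 to 2192 CPM in the monocytes and 269 to 2476 in the macrophages. Few calls would fall in 11 genes at that rate, and the part of neutrophils in the Cd177 difference was not tested. Cd177 lost its call without the mouse block (adjusted p = 0.0879).

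Lyz1 (chromosome 10, 117287797 to 117292868), a lysozyme gene, stood at 48.8, 68.1 and 16.1 CPM against 2.87, 2.28, 0 and 1.07 (log2 fold change 4.75, adjusted p = 0.00123). It is a near copy of its neighbour Lyz2, so its reads are uncertain. Vcan (chromosome 13, 89655312 to 89742509), the matrix proteoglycan versican, had 39.6, 40.7 and 82.3 CPM against 1.72, 2.73, 0 and 2.14 (log2 fold change 5.48, adjusted p = 0.013). Slfn4 (chromosome 11, 83175186 to 83190216), of the Schlafen family, had 36, 56.5 and 72.7 CPM against 4.02, 0.683, 0 and 4.81 (log2 fold change 4.45, adjusted p = 0.0299). The macrophages of mouse 24 stood at 0 CPM in all 3 genes, so the size of these changes is uncertain. The libraries of the populations were apart in all 3 genes, but the calls of Vcan and Slfn4 rested on single libraries. Vcan was not called without the monocytes of mouse 24 or without the macrophages of mouse 24 or 26 (adjusted p 0.0564 to 0.0791), and Slfn4 kept its call in the fit without the macrophages of mouse 22 alone (adjusted p 0.0587 to 0.162 in the other 6). Without the mouse block neither was called (0.0763 and 0.0653).

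**Figure D2:**
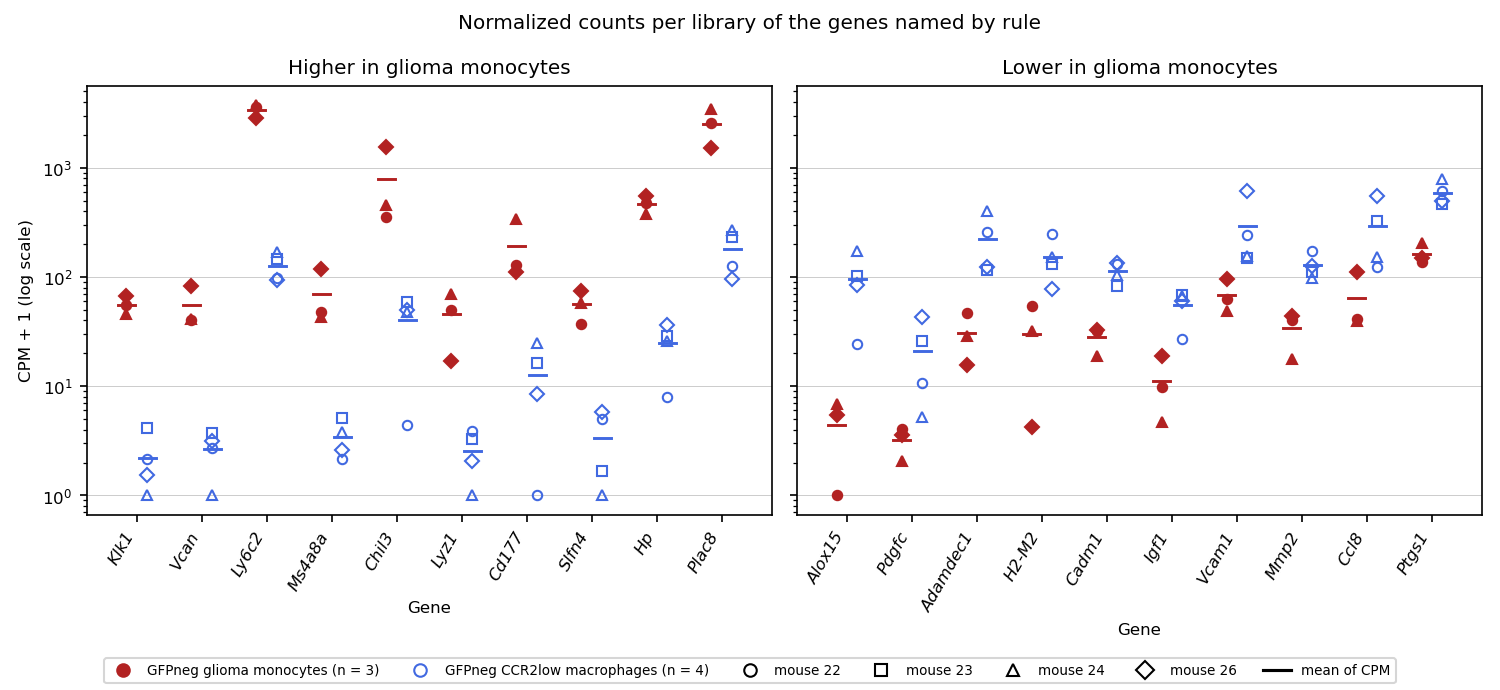
CPM plus 1, on a log scale, of the 10 genes with the largest rises and the 10 with the largest falls by the stated rule, in each library. Filled red symbols are the 3 monocyte libraries and open blue symbols the 4 macrophage libraries, the symbol's shape gives the mouse, and bars are means of the CPM; no red symbol overlaps the blue ones of its gene.

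The genes that mark classical monocytes rose as a group. Of 25 listed and tested, 20 were called higher, 0 lower and 5 were not called, against 1.89% of all genes called higher, and all 25 had a positive fold change with a median of 2.74, compared with -0.094 over all genes. With spike-in scaling 24 of the 25 were positive and the median was 2.34. Without the mouse block 13 were called. Like the other lists, this one was chosen with earlier results of these data known. It includes Ly6c2 and Ccr2, which the gates used, and Vcan, Ms4a8a, Chil3, Hp and Plac8, named above for their fold changes. The gate for high Ly6C also selects such monocytes. The counts therefore describe the list and are no independent test. The summed level of the list was 19860.2 to 26715 CPM in the monocytes and 4315 to 5366 in the macrophages, with no overlap.

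Several of these genes encode calcium-binding, membrane and receptor proteins. S100a6, a calcium-binding protein, had 460.1, 707 and 434 CPM in the monocytes against 80.4, 269, 122 and 154 in the macrophages (log2 fold change 2.07, adjusted p = 1.86e-05). Its close relative S100a4 had 69.4, 179 and 79.8 against 17.8, 57.8, 17 and 31.5 CPM (log2 fold change 2.17, adjusted p = 0.00322), a call lost without the monocytes of mouse 24 (0.0692) and without the mouse block (0.108). Neither gene overlapped between the populations. Ms4a4c, a membrane-spanning protein, stood at 1649.6, 1871 and 1300.5 CPM against 313, 199, 262 and 216 (log2 fold change 2.74, adjusted p = 1.86e-05), and Ifitm6, of the interferon-induced transmembrane family, at 75.6, 109.8 and 86.2 against 1.15, 9.33, 8.51 and 8.55 (log2 fold change 3.79, adjusted p = 1.22e-05). Clec4e, which encodes the receptor Mincle for microbial glycolipids and dead cells, was at 299.7, 205 and 448 CPM against 31, 18.2, 15.1 and 77.5 (log2 fold change 3.35, adjusted p = 1.45e-05). Again every monocyte library exceeded every macrophage library.

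In 2 genes of the list that encode extracellular proteins, mouse 26 had the highest level in both populations. Thbs1, which encodes the matrix protein thrombospondin-1, had 600.4, 286 and 7185 CPM in the monocytes and 23, 41.7, 70.0 and 621 in the macrophages. The macrophages of mouse 26 lay above the monocytes of mice 22 and 24, and the rise was seen within each mouse (log2 fold change 3.38, standard error 0.52, adjusted p = 0.000357). F13a1, the A subunit of coagulation factor XIII, had 411, 507 and 1620.1 CPM against 76.3, 37.1, 13.2 and 313 without overlap (log2 fold change 3.47, adjusted p = 0.0015). Neither was called without the mouse block (0.477 and 0.27).

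Genes induced by interferons made up the other large group of rises. Interferons signal to a short promoter motif, the interferon-stimulated response element, and switch on antiviral effectors. Of 42 tested genes of this kind, 22 were called higher, 0 lower and 20 were not called, against 1.89% of all genes called higher. The count fell to 14 without the monocytes of mouse 24 and to 15 without the macrophages of mouse 23 or 24. In all, 41 of the 42 had a positive fold change, and the median was 1.54. With spike-in scaling 41 were positive and the median was 1.11, with 0 called and 9 at an unadjusted p under 0.05. Summed over the list, the level was 22434 to 37315 CPM in the monocytes against 10778 to 14094 in the macrophages. The lowest monocyte value, of mouse 26, lay above all macrophage values.

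Several effectors and nucleic acid sensors of the response were called. Rsad2, which encodes viperin, an enzyme that makes a chain-terminating nucleotide, stood at 708, 1219 and 1229.7 CPM in the monocytes and 80.4, 71.5, 136 and 183 in the macrophages (log2 fold change 2.99, standard error 0.54, adjusted p = 0.00192). Ifit1, which binds foreign RNA ends, had 595, 790.0 and 368 against 133, 74.9, 118 and 110.1 CPM (log2 fold change 2.36, adjusted p = 0.00092). Its relative Ifit3 had 577, 739 and 393 against 147, 109, 114 and 85 (log2 fold change 2.16, adjusted p = 0.00105), with reads that may be shared with the near copy Ifit3b. In all 3 genes the lowest monocyte library was over 2 times the highest macrophage library. Ifi205, of the family that senses DNA, was at 543, 592 and 301 CPM against 69.5, 60.8, 47.3 and 34.7 (log2 fold change 3.24, adjusted p = 8.18e-05). Zbp1, a sensor of nucleic acids in the Z form, was at 950.5, 1092 and 513 CPM against 298, 295, 328 and 222 (log2 fold change 1.56, adjusted p = 5.5e-05). Ifit2 had 1129.9, 1212 and 832 against 317, 97.9, 167 and 234 CPM (log2 fold change 2.23, adjusted p = 0.0247), and stayed called without the macrophages of mouse 22 or 26 and not without any other library (adjusted p 0.0712 to 0.122 in the other 5).

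Regulators of the response were also called. Irf7, the transcription factor that amplifies type I interferon production, stood at 2569, 3297 and 1957 CPM in the monocytes and 785, 457, 705 and 538 in the macrophages (log2 fold change 2.0, standard error 0.21, adjusted p = 2.33e-06). Isg15, a ubiquitin-like modifier, had 1019.9, 1248 and 548 CPM against 233, 205, 354 and 129 (log2 fold change 2.08, adjusted p = 9.86e-05). Usp18, the protease that removes it and dampens the receptor, had 952, 1093 and 468 CPM against 346, 224, 276 and 159 (log2 fold change 1.72, adjusted p = 0.00189; 0.0558 without the mouse block). None of the 3 overlapped, and mouse 26 had the lowest monocyte value in each. The chemokine Cxcl10 was at 1537, 2623 and 965 CPM against 462, 377, 378 and 299.9; its libraries did not overlap, and its log2 fold change of 2.02 did not pass the test (adjusted p = 0.0649). In the plot of the called interferon-stimulated genes the monocyte symbols lie above the macrophage symbols gene by gene.

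**Figure D3:**
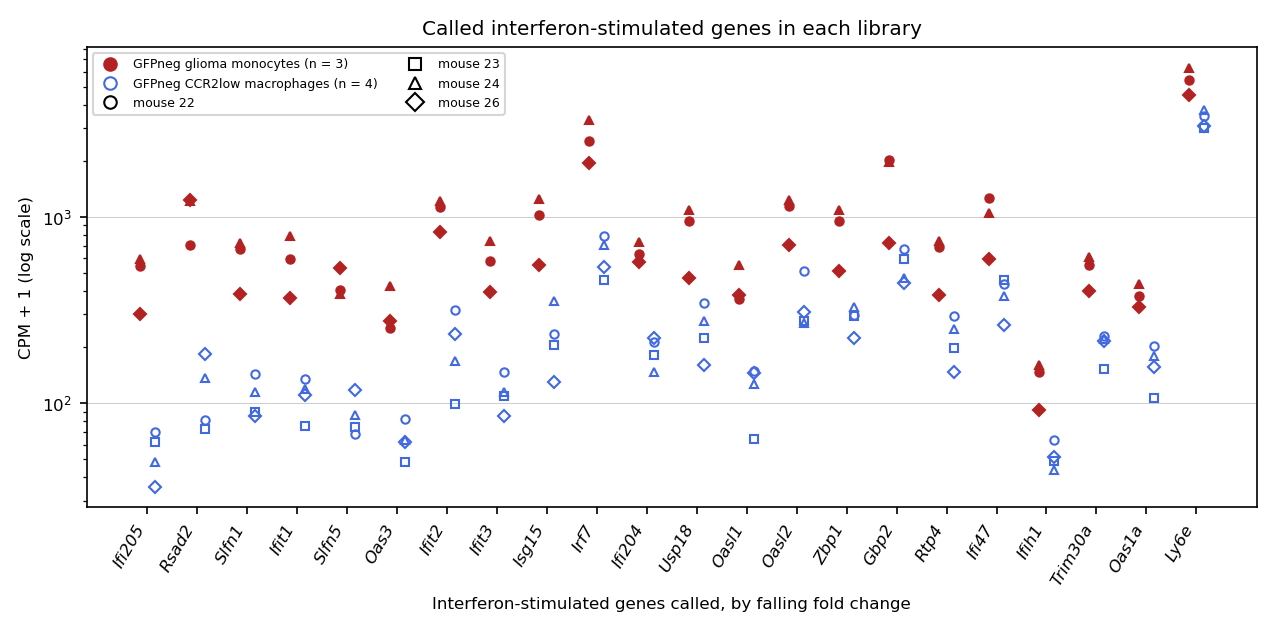
CPM plus 1, on a log scale, of the 22 interferon-stimulated genes called higher, in each library, ordered by falling fold change. Filled red symbols are the 3 monocyte libraries, open blue symbols the 4 macrophage libraries, and shapes give the mouse; the gap is widest for Ifi205 and narrowest for Ly6e, which is also the gene of the highest level.

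The promoters of these genes were searched for the core of the response element, GAAA followed after any 2 bases by another GAAA, on both strands over the 250 bases before the transcription start in RefSeq (build GRCm38.p6). Overlapping matches were counted. The motif was found in 936 of 27018 genes with a promoter in the table (3.46%) and in 311 of 8698 tested genes (3.58%). It was found in 10 of the 17 called interferon-stimulated genes with a promoter (58.8%), in 8 of the 15 that were not called (53.3%), in 16 of 144 other genes called higher (11.1%), in 0 of 18 classical monocyte genes and in 1 of 29 genes called lower (3.45%). The interferon list is made of known targets, so its share describes the list, and the genes called and not called had like shares. A match is a run of letters and not evidence of a bound factor. Of the genes described above, Irf7 and both starts of Ifit2 held 0 matches. The windows of 4 genes that hold the motif are shown for how many matches they have and how far these lie from the start, each 5′ to 3′ on the gene's strand with the matched bases in capitals. Rsad2 (chr12:26456453-26456702, minus strand) holds 1 match in the reverse orientation, 110 bases before the start. Ifit1 (chr19:34640639-34640888, plus strand) and Ifit3 (chr19:34583279-34583528, plus strand) hold 2 each, also in reverse, the nearest at 75 and 112 bases. Isg15 (chr4:156200819-156201068, minus strand) holds 3 overlapping forward matches, the nearest at 56 bases.
Rsad2: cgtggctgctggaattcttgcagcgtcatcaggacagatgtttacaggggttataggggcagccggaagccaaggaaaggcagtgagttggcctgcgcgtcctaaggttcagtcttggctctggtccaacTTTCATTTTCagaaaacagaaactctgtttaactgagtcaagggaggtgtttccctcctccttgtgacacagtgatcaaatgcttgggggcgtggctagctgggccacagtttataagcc
Ifit1: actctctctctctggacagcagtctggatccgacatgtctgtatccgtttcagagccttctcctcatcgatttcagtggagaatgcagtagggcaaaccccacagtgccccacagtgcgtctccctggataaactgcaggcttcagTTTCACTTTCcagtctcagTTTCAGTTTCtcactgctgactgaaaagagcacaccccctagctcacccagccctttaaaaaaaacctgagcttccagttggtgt
Ifit3: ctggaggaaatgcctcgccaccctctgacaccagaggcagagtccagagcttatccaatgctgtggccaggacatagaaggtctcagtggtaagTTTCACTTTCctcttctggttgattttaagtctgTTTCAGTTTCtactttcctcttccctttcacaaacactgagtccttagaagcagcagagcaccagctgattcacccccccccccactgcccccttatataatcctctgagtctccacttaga
Isg15: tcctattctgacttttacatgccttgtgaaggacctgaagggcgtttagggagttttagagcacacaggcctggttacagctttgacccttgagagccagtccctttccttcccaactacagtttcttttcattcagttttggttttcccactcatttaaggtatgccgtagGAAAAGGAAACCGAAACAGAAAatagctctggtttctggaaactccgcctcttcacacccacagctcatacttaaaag

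A few inflammatory cytokine genes were called higher in the monocytes. Of 20 tested genes for cytokines and the inflammasome, 4 were called higher (Il1b, Il1rn, Il6 and Osm), 0 lower, and 17 had a positive fold change, with a median of 1.07 (0.648 with spike-in scaling). Over all tested genes 1.89% were called higher and 5043 of 11566 were positive with TMM. Il1b, which encodes interleukin-1β, was at 3433, 2928 and 6002 CPM in the monocytes and 1328, 445, 741 and 2179 in the macrophages (log2 fold change 1.75, standard error 0.28, adjusted p = 0.000697; 0.0837 without the mouse block). The populations did not overlap, and mouse 26 was highest in both. Il1rn, which encodes its natural antagonist, had 1798, 3056 and 1419 against 412, 394, 438 and 744 CPM (log2 fold change 2.01, adjusted p = 0.0261), and the cytokine oncostatin M, Osm, had 1578, 2616 and 1528 against 489, 295, 432 and 738 (log2 fold change 1.98, adjusted p = 0.0268). Il6 was low, at 14.9, 59.7 and 37.3 against 3.44, 1.82, 7.56 and 9.09 CPM (log2 fold change 2.36, adjusted p = 0.0315). The libraries of these 3 genes did not overlap either. Their calls were weak, since Il1rn and Osm kept them in the fits without the macrophages or the monocytes of mouse 26 alone (adjusted p 0.0762 to 0.2 and 0.0503 to 0.191 in the other 5) and Il6 in none of the 7 (0.0651 to 0.16). Without the block neither Osm (0.0608) nor Il6 (0.224) was called. Tnf was not called, at 89.4, 242 and 224 against 59.1, 63.3, 130.4 and 285 CPM (adjusted p = 0.961).

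Of 8 tested genes of arginine and itaconate metabolism, 4 were called higher (Arg1, Arg2, Ass1 and Nos2) and 0 lower. The share of all genes called higher was 1.89%. Arg1, the cytosolic arginase, varied more between mice than between populations, with 298, 466 and 2639.5 CPM in the monocytes and 177, 685, 290.2 and 1243 in the macrophages. The populations overlapped, and the call rests on the mouse block (log2 fold change 0.95, adjusted p = 0.0268; 0.968 without it). Nos2, the inducible nitric oxide synthase, also overlapped, at 81.2, 66.5 and 256 against 25.8, 20.3, 1.89 and 148 CPM (log2 fold change 2.19, adjusted p = 0.0263; 0.906 without the block). Arg2, the mitochondrial arginase, did not overlap, with 70.9, 70.2 and 63 CPM against 9.18, 2.05, 0.945 and 22.5 (log2 fold change 3.57, adjusted p = 0.0251; 0.131 without the block). Each of the 3 was called in 2 or 3 of the 7 fits that left out 1 library. Arg1 was lost without the macrophages of mouse 22, 23 or 24 or the monocytes of mouse 26 (0.0725 to 0.235), Nos2 without the macrophages of mouse 23 or 24 or the monocytes of mouse 22 or 24 (0.0672 to 0.181), and Arg2 without the macrophages of mouse 22, 23 or 24 or the monocytes of mouse 22 or 24 (0.0524 to 0.176).

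Chemokines moved in both directions. Of 22 tested CC and CXC chemokines, 3 were called higher (Ccl2, Ccl9 and Cxcl11) and 2 lower (Ccl8 and Ccl12). Over all tested genes these shares were 1.89% and 0.38%. Ccl9, a ligand of CCR1, stood at 407, 738 and 1150.0 CPM in the monocytes and 58.6, 148, 159.8 and 324 in the macrophages (log2 fold change 2.31, adjusted p = 2.58e-05; 0.13 without the mouse block). Cxcl11, an interferon-induced ligand of CXCR3, had 95.6, 141 and 37.3 CPM against 22.4, 13.2, 22.7 and 9.09 (log2 fold change 2.41, adjusted p = 0.00217). Ccl2, the main ligand of CCR2, had 588, 474 and 949 CPM against 281, 172, 206 and 277 (log2 fold change 1.44, adjusted p = 0.0204), and kept its call in the fits without the monocytes or the macrophages of mouse 22 alone (0.0513 to 0.103 in the other 5). The other called chemokines fell. Ccl12, a CCR2 ligand so close in sequence to Ccl2 that their reads may be mixed, was at 233, 163 and 310.0 CPM in the monocytes against 613, 463, 699.5 and 454 in the macrophages (log2 fold change -1.24, adjusted p = 0.00747). Ccl8 (chromosome 11, 82115185 to 82116799), which in the mouse signals mainly through CCR8, was at 40.1, 38.5 and 109 against 123, 327, 151 and 555 CPM (log2 fold change -1.93, adjusted p = 0.0128). None of the 5 chemokines overlapped between the populations. The call of Ccl12 was lost without the monocytes of mouse 22 or 24 (0.0689 to 0.119), and that of Ccl8 without these or the macrophages of mouse 26 (0.0567 to 0.0933). Without the block neither Ccl2 (0.0558) nor Ccl8 (0.114) was called.

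By the same rule, the 10 genes with the largest falls in the monocytes were Alox15, Pdgfc, Adamdec1, H2-M2, Cadm1, Igf1, Vcam1, Mmp2, Ccl8 and Ptgs1, which encode enzymes of lipid oxidation, growth factors, proteases, adhesion and recognition molecules and a chemokine. Alox15 (chromosome 11, 70344152 to 70352031), the lipoxygenase of resident macrophages, was at 0, 5.81 and 4.5 CPM in the monocytes and 23.5, 102, 172 and 82.9 in the macrophages (log2 fold change -4.70, standard error 1.15, adjusted p = 0.0261). Ptgs1 (chromosome 2, 36230426 to 36252272), the cyclooxygenase COX-1, had 136, 203 and 149 CPM against 614, 466, 784 and 490.2 (log2 fold change -1.85, adjusted p = 0.0115). In both genes every macrophage library lay above every monocyte library. The monocytes of mouse 22 stood at 0 CPM in Alox15, so the size of its change is uncertain. Alox15 kept its call without the macrophages of mouse 22 and in no other of the 7 fits (adjusted p 0.0521 to 0.175), and Ptgs1 lost it without the monocytes of mouse 22 or 24 (0.0744 to 0.103).

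Of the falls, those of 3 adhesion and recognition molecules held in every fit that left out 1 library. Vcam1 (chromosome 3, 116109949 to 116129688), a ligand of the integrin α4β1, stood at 61.7, 48.1 and 94.5 CPM in the monocytes and 241, 148, 154 and 615 in the macrophages (log2 fold change -2.0, standard error 0.38, adjusted p = 0.00481; 0.0609 without the mouse block). Cadm1 (chromosome 9, 47530173 to 47857637), a cell adhesion molecule of the immunoglobulin family, had 31.4, 18 and 31.5 CPM against 129.7, 81, 104 and 134 (log2 fold change -2.09, adjusted p = 0.00134). H2-M2 (chromosome 17, 37480851 to 37483552), a nonclassical MHC class I gene, had 52.9, 31.2 and 3.22 CPM against 246, 130.0, 152 and 77 (log2 fold change -2.75, adjusted p = 0.00161; 0.291 without the block). All 3 were free of overlap.

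Several single growth factor and protease genes were also among the falls. Igf1 (chromosome 10, 87858265 to 87937042), insulin-like growth factor 1, was at 8.74, 3.7 and 18 CPM against 25.8, 67.6, 65.7 and 58.8 (log2 fold change -2.04, adjusted p = 0.0336; 0.0834 without the block). Pdgfc (chromosome 3, 81036416 to 81214040), a platelet-derived growth factor, was at 3.08, 1.06 and 2.57 CPM against 9.76, 25, 4.25 and 41.7 (log2 fold change -2.98, adjusted p = 0.0261). Its value in the monocytes of mouse 24 was under the floor of 3 counts (1.58 CPM). Mmp2 (chromosome 8, 92827291 to 92853420), a gelatinase, had 39.1, 16.9 and 43.1 CPM in the monocytes against 173, 111, 97.8 and 125 (log2 fold change -1.94, adjusted p = 0.0136), and these 3 genes did not overlap. Adamdec1 (chromosome 14, 68563380 to 68582095), a disintegrin-like metalloprotease of macrophages, had 46.3, 28 and 14.8 CPM against 257, 115, 397 and 122 without overlap (log2 fold change -2.93, adjusted p = 0.016; 0.0719 without the block). Mmp13, a collagenase, had 51.9, 26.4 and 86.8 CPM against 455, 85.1, 133 and 307; the values overlapped between mice, and the fall was seen within each mouse (log2 fold change -2.24, adjusted p = 0.00127), which the rule left out for that overlap. Mmp13 kept its call whichever library was left out. Igf1 kept its call without the monocytes of mouse 26 alone (0.0539 to 0.195 in the other 6 fits). Pdgfc kept it without the macrophages of mouse 22 or 24 (0.0603 to 0.189 in the other 5). Mmp2 lost it without either library of mouse 22 or the monocytes of mouse 24 (0.0563 to 0.177), and Adamdec1 without either library of mouse 24 or the monocytes of mouse 22 or 26 (0.0656 to 0.162).

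The matrix and plasminogen genes as a list thus split, with 6 of 26 tested called higher (Cd44, F13a1, Plaur, Tgfbi, Thbs1 and Vcan) and 4 lower (Adamdec1, Mmp13, Mmp2 and Sparc). The shares over all genes were 1.89% and 0.38%. Cd44, the hyaluronan receptor, stood at 389, 492 and 558 CPM in the monocytes and 192, 172, 121 and 249.6 in the macrophages without overlap (log2 fold change 1.35, adjusted p = 0.00174).

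Genes of macrophage identity gave fewer calls than those of classical monocytes, and in both directions. Of 28 tested, 2 were called higher, 6 lower (Adgre1, Cd63, Cd72, Cd81, Cx3cr1 and Sepp1) and 20 were not called, with a median of -0.51. Over all genes 1.89% were called higher and 0.38% lower. The lower calls came to 2 without the macrophages of mouse 24 or the monocytes of mouse 22 or 24, to 3 without the monocytes of mouse 26 and to 1 without the block. Cx3cr1, the fractalkine receptor, was at 356, 454 and 403 CPM in the monocytes and 966, 678, 1385 and 1097 in the macrophages (log2 fold change -1.45, standard error 0.25, adjusted p = 0.00147; 0.0682 without the mouse block). Cd72, an inhibitory receptor, had 92, 85.5 and 100.3 CPM against 401, 237, 235 and 325 (log2 fold change -1.61, adjusted p = 0.00769), with the call lost without the monocytes of mouse 22 (0.0836). Both were free of overlap. The tetraspanins Cd81 and Cd63 had 710.4, 788 and 558 against 2029.8, 1802, 2904 and 1445 CPM and 535, 345 and 673 against 1281, 989.8, 1112 and 1217 CPM (log2 fold changes -1.61 and -1.23, adjusted p = 0.0156 and 0.044), again without overlap. Cd81 lost its call without either library of mouse 24 or the monocytes of mouse 22 or 26 (0.0667 to 0.136), and Cd63 kept it without the monocytes of mouse 26 alone (0.0865 to 0.369 in the other 6 fits). Without the block neither was called (0.0589 and 0.164).

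The genes called higher in this list were Fcgr1 and Cd14. Fcgr1, the high-affinity Fc receptor CD64 that is often used to tell macrophages from dendritic cells, stood at 774, 795 and 825 CPM in the monocytes and 366, 232, 299.7 and 383 in the macrophages, with no overlap (log2 fold change 1.32, standard error 0.21, adjusted p = 0.000511). Cd14, the lipopolysaccharide co-receptor, had 1236, 986 and 2789 CPM against 732, 297, 382 and 1444, which overlap (log2 fold change 1.17, adjusted p = 0.0192; 0.573 without the mouse block). It was called in the fits without the macrophages of mouse 26 or the monocytes of mouse 22, and not in the other 5 (0.0552 to 0.177). Csf1r, the growth factor receptor shared by monocytes and macrophages, had 2681, 2969 and 3441 CPM against 3296, 2303, 3583 and 4047 and was not called (log2 fold change -0.19, adjusted p = 0.918). Mertk, the receptor for dead cells, and Mrc1, the mannose receptor, were not called either, at 66.8, 43.3 and 117 against 156, 102, 152 and 192 CPM and 26.2, 42.2 and 145 against 64.9, 65.8, 87 and 374 CPM (adjusted p = 0.133 and 0.528). In both the populations overlapped.

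Several markers of microglia fell in the monocytes. Of 13 tested, 5 were called lower (among them Fcrls, Olfml3, Sparc and Tmem119) and 0 higher, against 0.38% of all genes called lower. Leaving out 1 library gave 1 to 4 such calls, the fewest without the monocytes of mouse 22 and 2 without the monocytes of mouse 24 or 26 or the macrophages of mouse 23 or 24 (3 without those of mouse 26), and the fit of the brain populations gave 10. Over all genes the brain fit called 251 of 11283 lower. All 13 had a negative fold change under TMM (median -1.40) and under spike-in scaling (median -1.70). Over all 11566 tested genes 6523 and 8664 were negative, with medians of -0.094 and -0.428. The summed level of the marker list was 2456 to 3883 CPM in the monocytes and 5153 to 12871 in the macrophages. The macrophages of mouse 24 were the highest by far. Of the 14 markers in the table, Gal3st4 was at 0 in every monocyte library and none was at 0 in every macrophage library. Tmem119, a membrane protein that marks microglia, was at 297, 568 and 372 CPM in the monocytes and 986, 995, 2246 and 709 in the macrophages (log2 fold change -1.54, standard error 0.21, adjusted p = 0.000135), and P2ry12, a purinergic receptor of microglia, at 269, 676 and 149.9 against 520.1, 631, 1806 and 250.2 (log2 fold change -0.93, not called, adjusted p = 0.687). The populations did not overlap in Tmem119 and overlapped in P2ry12. Both genes were thus found in the monocytes and the macrophages, although the sort took CD45high cells and microglia are known for intermediate CD45. Whether microglia in the sort, or expression by the sorted cells, gave these levels was not tested, nor was their part in the other genes that fell, among them Cx3cr1, Cd81 and Cd63, which microglia also express.

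Olfml3 and Sparc, both secreted proteins of microglia, had 232, 392 and 312 against 591, 850.5, 1261 and 682 CPM and 371, 529 and 448 against 753, 1079, 2123 and 757 CPM (log2 fold changes -1.40 and -1.38, adjusted p = 0.00389 and 0.0162), and Fcrls, an Fc receptor-like protein, had 92, 228 and 231 against 292, 351, 689 and 717 (log2 fold change -1.57, adjusted p = 0.0313). No library overlapped in these 3 genes. Olfml3 lost its call without the monocytes of mouse 22 (0.0528), Sparc kept it without the macrophages of mouse 22 or 26 alone (0.0513 to 0.158 in the other 5 fits), and Fcrls without the macrophages of mouse 22 alone (0.0615 to 0.234). Without the block neither Sparc (0.0558) nor Fcrls (0.216) was called. B and plasma cell markers had 1 call in 8 tested, against 0.38% of all genes called lower. It was Cd79a of the B cell receptor, at 42.7, 142 and 10.9 against 168, 185, 455 and 34.2 CPM (log2 fold change -1.84, adjusted p = 0.0244). Its values overlapped and followed the mouse, with mouse 24 highest and mouse 26 lowest in both populations, and the call held without the macrophages of mouse 22 alone (0.0548 to 0.231) and not without the mouse block (0.82). Of the tested markers of T and NK cells, dendritic cells, erythroid cells, oligodendrocytes, astrocytes, neurons, and endothelial cells and fibroblasts (15, 15, 4, 5, 7, 2 and 11), 0 were called, against 2.27% of all genes.

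Some of the stress genes that rise when tissue is dissociated were higher in the monocytes. Of 20 tested, 4 were called higher in the monocytes (Atf3, Ier3, Nr4a1 and Zfp36), 0 lower, and 19 were positive (16 with spike-in scaling). Over all 11566 genes 1.89% were called higher, and 5043 were positive (2902 with spike-in scaling). Of the fits that left out 1 library, those without either library of mouse 26 gave 4 calls and the other 5 gave 2. The summed level ran from 17566 to 27313 CPM in the monocytes and from 7767 to 12842 in the macrophages, without overlap. Nr4a1, an immediate early nuclear receptor that Ly6Clow monocytes need, was at 574, 926 and 1376 CPM against 160.2, 134, 259 and 437 (log2 fold change 1.77, standard error 0.25, adjusted p = 0.000114; 0.0569 without the mouse block). Atf3, a stress-induced repressor, was at 552, 798 and 619 CPM against 176, 138, 235 and 429 (log2 fold change 1.36, adjusted p = 0.0422; 0.261 without the block), and was called in the fits without the macrophages or the monocytes of mouse 26 alone (0.0964 to 0.255 in the other 5). The part of dissociation in these and in the cytokine differences was not tested. With Klf6, these 2 were the called genes among 30 tested myeloid transcription factors, 3 higher and 0 lower.

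The lists of antigen presentation and complement held no called gene, H2-M2 above being in none of them. Over all genes 1.89% were called higher and 0.38% lower, so few calls would fall in lists of 13 to 20 genes anyway. Of 13 tested genes of MHC class II presentation, 0 were called, with a median log2 fold change of -0.05. H2-Aa, an MHC class II chain, was at 5842, 5764 and 3813 CPM in the monocytes and 7076, 3932, 5218 and 5213 in the macrophages, which overlap (log2 fold change -0.05, standard error 0.31, adjusted p = 0.991). Of 18 tested genes of MHC class I presentation 0 were called, 17 were positive with TMM and 10 with spike-in scaling, and the median was 0.42 or 0.05. The fit of the brain populations called 4 of these 18 higher, against 485 of all 11283 genes. Of 20 complement genes 0 were called, with a median of -0.49. With the compared populations alone 4 of 18 tested were called lower. With the brain populations 4 of 19 were lower and 1 higher, and with DESeq2 and the block 2 of 20 were lower. Over all genes these fits called 163 of 9942, 251 of 11283 and 139 of 11566 lower. C1qa, a chain of C1q, was at 1360.2, 1267 and 1183 CPM against 3293, 2608, 3498 and 3130.3, with no overlap, and did not pass the test (log2 fold change -1.29, standard error 0.43, adjusted p = 0.155, and from 9.96e-06 to 0.999 over the alternatives). Missing the threshold does not show that these levels were equal.

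Lipid-associated genes split, with 3 of 26 tested higher (Apoc2, Lgals3 and Plin2) and 3 lower (Cd63, Ch25h and Igf1). The shares over all genes were 1.89% called higher and 0.38% lower. Apoc2, an apolipoprotein that activates lipoprotein lipase, was at 281, 190.1 and 282 CPM in the monocytes and 68.9, 51.4, 26.9 and 116 in the macrophages, without overlap (log2 fold change 2.10, standard error 0.29, adjusted p = 0.000105). Plin2, the coat protein of lipid droplets, had 698, 349 and 1085 against 412, 222, 115 and 589 CPM, and Lgals3, which encodes galectin-3, had 1675, 1347 and 1983 against 998, 899.9, 719 and 1419.7 CPM (log2 fold changes 1.03 and 0.75, adjusted p = 0.00104 and 0.0068). Both overlapped between mice and rose within each mouse, and neither was called without the block (0.548 and 0.0628).

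Of 32 tested lysosome genes 1 was called higher (Npc2) and 3 lower (Cd63 and Ctsd among them), against 1.89% and 0.38% of all genes. Ctsd, the protease cathepsin D, stood at 5376, 4287 and 5178 CPM against 9981, 7151, 10268 and 7939.6 without overlap (log2 fold change -0.89, adjusted p = 0.00415; 0.0681 without the block). Without the monocytes of mouse 24 it was no longer called (0.0802). Over all 11566 tested genes 5043 were positive with TMM and 2902 with spike-in scaling. With the compared populations alone 402 of 9942 genes were called higher, and with the brain populations 485 of 11283. DESeq2 with the block called 333 of 11566 higher. All 27 genes of glycolysis and the hypoxia response had a positive fold change with TMM, and 18 with spike-in scaling, and 2 were called higher, but 10 with the compared populations alone, 11 with the brain populations and 5 with DESeq2 and the block. Those 2 were the glycolytic enzyme Eno1, at 1990.4, 1958 and 2382 against 1439, 1557, 1083 and 1814 CPM (log2 fold change 0.56, adjusted p = 0.0121), and the lactate exporter Slc16a3, at 353, 408 and 758 against 128, 220.4, 117 and 351 (log2 fold change 1.44, adjusted p = 0.0448). The populations did not overlap in either gene. Neither was called without the block (0.269 and 0.429). Eno1 lost its call without either library of mouse 24 (0.0672 to 0.128), and Slc16a3 without any of the 7 libraries (0.0742 to 0.271).

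All 23 cell cycle genes had a negative fold change under TMM and under spike-in scaling (medians -1.23 and -1.56), and 1 was called lower, but 5 with the compared populations alone, 8 with the brain populations and 5 with DESeq2 and the block. Over all 11566 tested genes 6523 were negative under TMM and 8664 under spike-in scaling (medians -0.094 and -0.428). With the compared populations alone 163 of 9942 genes were called lower, and with the brain populations 251 of 11283. DESeq2 with the block called 139 of 11566 lower. In the fit of all 8 populations under TMM 1.89% of all genes were called higher and 0.38% lower. The single call was Stmn1, a regulator of microtubules, at 31.4, 23.2 and 54 CPM in the monocytes and 85.5, 139.8, 66.2 and 128 in the macrophages without overlap (log2 fold change -1.53, standard error 0.29, adjusted p = 0.00322), a call lost without the monocytes of mouse 24 (0.0551). Mki67, which encodes the proliferation marker Ki-67, overlapped at 12.3, 11.6 and 35.4 against 37.3, 37.8, 6.14 and 42.8 CPM and was not called (adjusted p = 0.891). Of 12 tested chemokine receptors 2 were called higher (Ccr2 and Ccrl2) and 1 lower (Cx3cr1), of 19 integrin and adhesion genes 2 higher (Cd44 among them) and 1 lower (Vcam1), of 14 growth factors 1 higher (Osm) and 1 lower (Igf1), and of 5 Fcγ receptor genes 1 higher (Fcgr1). The remaining lists, of efferocytosis and scavenger receptors (19 tested) and of iron and heme handling (16 tested), held 0 called genes. The plot of fold changes by list sets these beside each other.

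**Figure D4:**
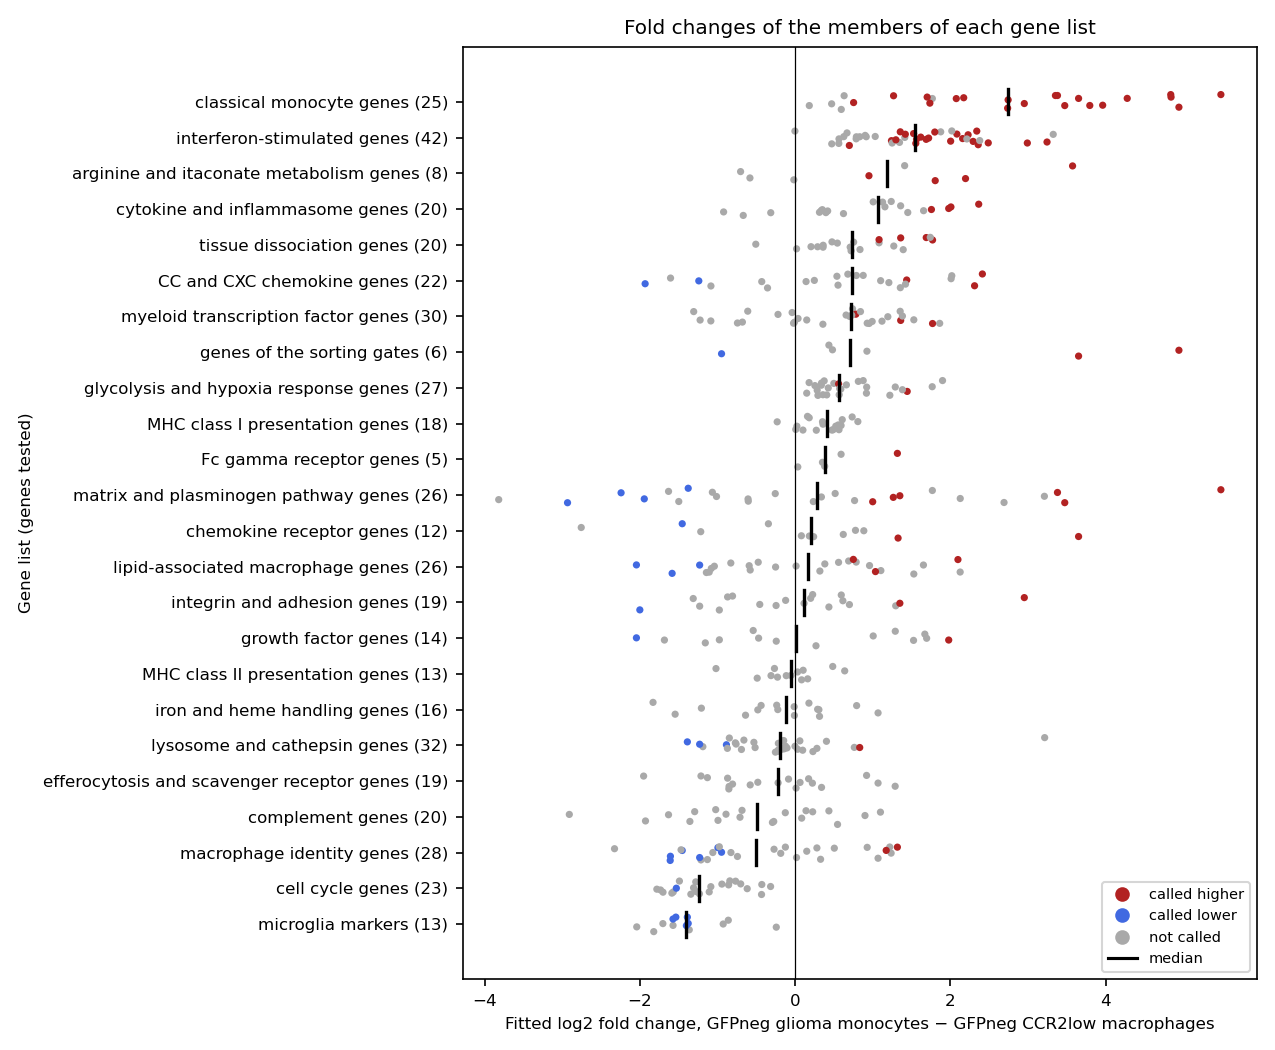
Fitted log2 fold change (glioma monocytes minus CCR2low macrophages, both GFPneg) of the tested members of each list, ordered by the median, which is the black bar; the number of genes tested is in brackets. Red points were called higher, blue points lower and grey points not called; classical monocyte genes (median 2.74) and interferon-stimulated genes (1.54) lie at the top, cell cycle genes (-1.23) and microglia markers (-1.40) at the bottom.

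The same contrast was made in the GFPpos cells, with 3 monocyte and 4 CCR2low macrophage replicates from the same mice but from other libraries, of which the GFPpos monocytes of mouse 22 were 2 libraries summed to 1 replicate. Of 11566 genes, 54 were called higher (0.467%) and 4 lower (0.0346%) in GFPpos glioma monocytes, 58 in all (0.501%), in the same edgeR fit, which shares its mouse terms and its spread with the GFPneg contrast. Of the 219 genes called higher in GFPneg monocytes, 208 (95%) had a positive fold change in GFPpos cells, compared with 46.2% of all tested genes, and 47 (21.5%) were called there. Of the 44 called lower, 38 (86.4%) were negative, compared with 53.8% of all genes, and 2 (4.55%) were called. The GFPpos replicates did not overlap, in the same direction, in 76 of the 219 (34.7%) and 17 of the 44 (38.6%), compared with 3.70% and 4.14% of all genes. The median fold change of the 219 was 1.66 in GFPneg and 0.79 in GFPpos cells, and that of the 44 was -1.58 and -0.57. Since the genes were selected on the GFPneg values, which favours large ones there, the smaller GFPpos medians do not show a weaker effect. Spike-in RNAs made up 3.59%, 5.16% and 0.612% of the counts in the GFPpos monocytes of mice 22, 24 and 26. In the GFPpos macrophages of mice 22, 23, 24 and 26 they made up 0.565%, 0.991%, 0.332% and 0.284%. The part of these shares in the GFPpos calls and medians was not tested. The difference of the contrasts was tested gene by gene, and 0 genes (0%) were called by edgeR (575 at an unadjusted p under 0.05, smallest adjusted p = 0.798). DESeq2 called 5 genes with the mouse as a block and 2 without it.

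The leading monocyte genes were higher in the GFPpos monocytes too. Plac8 had 1288 ± 622 CPM (SD, n = 3) in GFPpos monocytes and 123 ± 38.3 (SD, n = 4) in GFPpos macrophages (log2 fold change 3.49, adjusted p = 9.59e-09). Chil3 had 319 ± 194 against 38.8 ± 29.4 CPM (SD, n = 3 and 4; log2 fold change 3.57, adjusted p = 0.00118), and Hp 187 ± 87.1 against 21.7 ± 6.37 (log2 fold change 3.0, adjusted p = 0.00126). Isg15 had 632 ± 319 against 217 ± 75.6 CPM (log2 fold change 1.58, adjusted p = 0.00509). These 4 genes did not overlap between the GFPpos populations. Of the classical monocyte genes 15 of 25 were called higher in GFPpos cells, and of the interferon-stimulated genes 6 of 42, against 0.467% of all genes. F13a1 had 204 ± 193 against 269 ± 324 CPM (log2 fold change -0.13, adjusted p = 0.974), with overlapping values, and the difference between its GFPneg and GFPpos contrasts was not called either. Tmem119 had 696 ± 212 against 907 ± 256 CPM and overlapped (log2 fold change -0.42, adjusted p = 0.578).

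**Figure D5:**
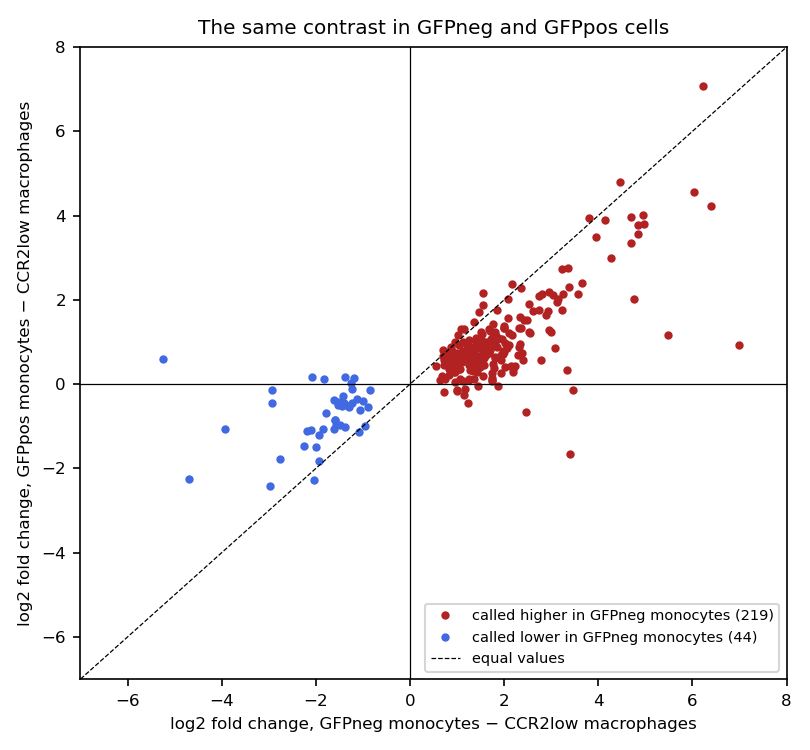
Fitted log2 fold change of the contrast of glioma monocytes and CCR2low macrophages in GFPneg cells (horizontal) and GFPpos cells (vertical) for the 219 genes called higher (red) and the 44 called lower (blue) in GFPneg monocytes; the dashed line marks equal values. Of these genes, 208 red points lie above 0 and 38 blue points below 0 on the vertical axis.

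GFPneg CCR2high macrophages, from the same 4 mice, had levels between the populations in several of the leading genes. Both contrasts of the monocytes use the same monocyte libraries, and genes chosen for a difference between 2 populations favour levels in between for another, so these values are a description. Against CCR2high macrophages, 77 genes were called higher (0.666%) and 9 lower (0.0778%) in the monocytes, 86 in all (0.744%), and CCR2high and CCR2low macrophages differed in 3 genes (0.0259%), 2 higher (0.0173%) and 1 lower (0.00865%) in the former (421 at an unadjusted p under 0.05). Plac8 was at 318 ± 87.6 CPM (SD, n = 4) in CCR2high macrophages, Hp at 39.3 ± 29.3 and Chil3 at 81.2 ± 55.5, each above its mean in CCR2low macrophages (181 ± 83.4, 23.7 ± 12 and 39.3 ± 24.5) and below that in the monocytes (2492 ± 948, 466 ± 87.3 and 787 ± 667; SD, n = 3). The interferon-induced Ifi205 was at 148 ± 40.8 CPM, between 53.1 ± 15.2 in the CCR2low macrophages and 479 ± 156 in the monocytes. Among the genes that fell, Cadm1 was at 68.2 ± 8.3 CPM, between 112 ± 24.7 and 26.9 ± 7.78. Alox15 had 5.87 ± 8.16 CPM in CCR2high macrophages, near the 3.44 ± 3.05 of the monocytes and below the 95.1 ± 61.2 of the CCR2low macrophages.

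Levels in the blood are given for the leading genes as a description, from mice 22, 23 and 24, whereas the glioma monocytes came from mice 22, 24 and 26. Plac8 was at 1677 ± 312 CPM (SD, n = 3) in Ly6Chigh and 1458 ± 504 (SD, n = 3) in Ly6Clow monocytes of the blood, Chil3 at 2789 ± 2327 and 228 ± 276, and Hp at 1834 ± 697 and 712 ± 359.7. The antiviral Rsad2 was at 69 ± 52.6 CPM in Ly6Chigh and 14.5 ± 16.9 in Ly6Clow blood monocytes. Of the inflammatory genes Il1b was at 89.1 ± 52.2 and 146 ± 37.8 CPM, and Thbs1 at 34.1 ± 4.95 and 68.8 ± 65.2. Blood and brain cells were prepared by different routes, so these levels were not tested against those of the glioma cells.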

How the data were processed

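RNA of sorted cells was amplified with a SMARTer kit and sequenced as paired reads. Per the study's methods, the authors aligned the reads with STAR to the mouse genome (mm10), removed duplicates with Picard (1.8.4) and deposited whole-number counts per gene made with HTSeq on GENCODE GRCm38.p3 annotation. The strand setting of the counting is not given in the sources used here, so antisense and overlapping genes cannot be told apart. The deposited counts were not normalized. Reads on no gene made up 7.76% to 11.6% of the compared libraries, and these rows and the 92 spike-in RNAs were kept out of library sizes.

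All 8 populations (28 replicates) were fitted together in edgeR 4.0.16 (R 4.3.3) with TMM scaling, filterByExpr, robust quasi-likelihood tests and the mouse as a block. Calls were made at a p under 0.05 after Benjamini-Hochberg adjustment. Of 30 libraries, 1 of Ly6Clow blood monocytes had under 6000 genes with 5 or more reads and was left out, and 2 libraries of the GFPpos monocytes of mouse 22 were summed. The mouse number comes from the titles. Deviations from the group means correlated within mice 22, 24 and 26 at 0.182, 0.335 and 0.502, and the pairing itself rests on the titles. The levels in the monocytes of mice 22 and 26 correlated best with the macrophages of their own mouse (Spearman 0.912 and 0.926). Those of mouse 24 correlated more with the macrophages of mouse 22 (0.886) than with those of mouse 24 (0.876). The 7 compared libraries came from 1 count table. A separate table, which may be of another run, held 1 library of the GFPpos monocytes of mouse 22, summed above, and 1 of Ly6Clow blood monocytes. P-values measure the spread left between replicates once the population and mouse terms are taken out, estimated over all 8 populations. A count of 3 served as the floor, equal to 1.54 to 1.93 CPM in the monocytes and 0.683 to 1.72 in the macrophages, and covers counting error only.

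The named genes were, in each direction, the 10 with the largest fitted change among called genes with at least 20 CPM in either population and no overlap, without immunoglobulin and T cell receptor segments, unnamed gene models and sex-linked genes, plus members of the gene lists. The members and lists were chosen with earlier results of these data known. Positions are from GENCODE vM21 (GRCm38), which held all 20 named symbols and 11132 of the 11566 tested ones. The alternatives were no block, fewer populations, DESeq2 1.42.0 and its size factors, spike-in scaling, other count filters and each replicate left out. The scripts were tested on simulated data. Counts were drawn from the fitted libraries with the real difference removed and known changes put in. The fit called 1.53% of genes changed by 1 on the log2 scale, 44.9% of those changed by 2 and 67.2% of those changed by 3. A gene or list without a call can therefore still differ. A few genes are not reported here.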

Additional observations from a re-analysis of the deposited data

Results flagged for a closer look

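In 6 of the 80 genes screened, 1 of the 4 CCR2low macrophage libraries stood apart, with a gap to its nearest neighbour that, as a share of the whole range, passed Dixon's critical value. Chance alone flags about 1 in 20 groups. The monocytes, with 3 libraries, could not be screened in this way.

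Mouse 26 was high in 4 of the genes. Thbs1 (thrombospondin-1) stood at 621 CPM in its macrophages and at 70.0 or less in the others, a gap of 0.921 of the range. Mrc1 (the mannose receptor) was at 374 against at most 87.0 CPM (0.928), Il1rn (the interleukin-1 receptor antagonist) at 744 against at most 438 (0.875) and Nos2 (inducible nitric oxide synthase) at 148 against at most 25.8 (0.836). In Thbs1, Mrc1 and Nos2, but not in Il1rn, mouse 26 was also the highest of the monocyte libraries. Mouse 26 was the mouse with high Xist, and its sex, its tumor and its cells cannot be told apart.

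The macrophages of mouse 24 held 6.14 CPM of Mki67 (Ki-67) against at least 37.3 (0.851). Of the 4 libraries the same one had the highest summed level of microglia, neutrophil, B and plasma cell and dendritic cell markers, but not of T and NK cell markers. It also had the highest shares of spike-in RNAs (1.17%) and mitochondrial genes (1.42%). In mouse 22, Ifitm6 was at 1.15 CPM against at least 8.51 (0.899), a value at or under the floor of 3 counts.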

How the results depend on the processing

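Of the 71 called genes given with values, none changed direction under the alternatives run, and 38 kept their call whichever of the 7 libraries was left out. Called genes named without values were not followed in this way. In GFPneg cells (219 higher, 44 lower) leaving out 1 replicate gave 100 to 207 and 10 to 30 genes. In GFPpos cells (54 and 4) it gave 23 to 118 and 1 to 56, and the difference between the contrasts stayed at 0. The fewest GFPneg calls came without the monocytes of mouse 24. Counts of 127 and 141 higher genes came without the macrophages of mouse 24 and mouse 23. Of the lower genes, 12 were left without the monocytes of mouse 22.

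Without the replicate block, 110 GFPneg genes were higher and 16 lower, all 126 among the 263, and GFPpos cells had 20 and 0. Of the 71 calls given with values, 35 held without the block. With the compared populations alone the counts were 402 and 163 in GFPneg and 15 and 0 in GFPpos cells. With the 6 brain populations they were 485 and 251, 205 and 86, and 13 genes differed between the contrasts. Spike-in scaling gave 4 and 0, and 0 higher in GFPpos cells. A filter of at least 1 count left 25 lower genes. DESeq2 with the block called 333 and 139, 116 and 63, and 5 for the difference. Without the block it called 22 lower genes in GFPpos cells and 2 for the difference. The share called higher was 83.3%, 71.2% with the compared populations, 65.9% with the brain populations, 70.6% with DESeq2 and the block and 100% with spike-in scaling. The cause of these changes was not tested. The depth, at least 1683203 counts, limits calls of genes near the floor.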

Other observations

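With the blood left out and the 6 brain populations fitted alone, 13 genes differed between the GFPneg and the GFPpos contrast of glioma monocytes and CCR2low macrophages (edgeR's quasi-likelihood test, Benjamini-Hochberg adjusted). None was called with all 8 populations. Adamdec1, a metalloprotease of macrophages, had a log2 fold change of -2.96 in GFPneg and -0.53 in GFPpos cells (adjusted p of the difference = 0.0151), and the tetraspanin Cd81 -1.57 and -0.36 (0.0151). The interferon-induced Ifit2 had 2.33 and 0.52 (0.0209).

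The largest differences were of Retnlg, a gene of neutrophils, with -3.47 in GFPneg and 0.40 in GFPpos cells, and of the lipoxygenase Alox5, with -1.77 and 1.67 (adjusted p of both differences = 0.0334). Genes of lymphocytes were also among the 13. Cd3g, Trac, Cxcr6 and Gimap4, which T cells express, and Cd79a, which B cells express, were at -0.97, -1.10, -1.07, -0.60 and -1.88 in GFPneg cells and at 0.67, 0.78, 0.71, 0.74 and 0.21 in GFPpos cells, with adjusted p from 0.0334 to 0.0358 for the differences. In GFPneg cells the summed level of the T and NK cell markers was 1255 to 2636 CPM in the monocytes and 1964 to 3686 in the macrophages. That of the B and plasma cell markers was 2331 to 4033 and 778 to 4797 CPM. Their part in the differences of other genes was not tested.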
